A study of Mus musculus with 13 samples.

Results

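Genes that repair broken, mismatched and damaged DNA were followed in mouse back skin across 48 h. The set was a list of 39 gene symbols, chosen by function. It and the other gene lists used below were chosen with earlier results of these data known. The set held 9 for sensing and signalling of breaks, 9 for homologous recombination, 5 for end joining and 3 of the Fanconi anaemia pathway. The others were 3 for mismatch repair, 9 for base excision repair and 1 for direct reversal of base damage. A gene was taken from the array where a probe carried its symbol alone, and the probe with the highest mean stood for it. This gave 37 of the 39 genes, among 16322 genes tested in all, and each of the 37 lay above the filter on dim probes. Trp53 and Xrcc2 were not analysed here.

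DNA damage is met by separate pathways, each of which begins by finding its own kind of lesion. Broken ends are bound by sensor complexes that activate kinases, and are then rejoined either directly or by copying an intact sister chromatid, which exists only after replication. Mismatch repair corrects copying errors behind the replication fork, whereas base excision repair replaces single damaged bases throughout the cell cycle. Skin meets ultraviolet light and oxidation from outside, and in the growth phase of the hair cycle, anagen, the cells of the hair matrix divide rapidly.

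The samples were 13 RNA pools of whole back skin from male C57Bl6 mice at postnatal day 30, with hair follicles in anagen. Mice were kept in 12 h of light and 12 h of dark with standard chow, and no mutation or treatment was named for any of them. Each pool joined RNA of 3 mice and was hybridised to 1 Affymetrix whole-transcript array. Times are given as ZT, the hours since lights came on, and ran from ZT2 to ZT50 in steps of 4 h. The 6 dark pools were ZT14, ZT18, ZT22, ZT38, ZT42 and ZT46, and the other 7 were light pools. No time had a second pool on the same day, so each p-value rests on how far pools scattered around the fit, and variation from mouse to mouse stayed hidden.

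Markers of skin were bright in every pool. Krt5, a keratin of basal epidermis, had an intensity between 13851 and 15797, and Col1a1, a fibroblast collagen, between 13131 and 16087. Mki67, a marker of dividing cells, lay between 3265 and 4589. The pools differed in other tissue. The summed intensity of 15 skeletal muscle markers ran from 50124 to 91385 in the dark pools, against 45149 to 90508 in the light pools. The sum of 7 measured hepatocyte markers reached 29456 in the dark pool ZT46, and was 3069 in the lowest dark pool, against 3200 to 6786 in the light pools. Array medians lay between 440.0 and 483. Whole skin is a mixture, so fewer cells of a type and less RNA per cell cannot be told apart in these values.

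No repair gene was called as changing with the hour of the day. None of the 37 passed the test for a 24 h wave at an adjusted p under 0.05, where 0.141% of all genes did (limma moderated F test, Benjamini-Hochberg). At an unadjusted p under 0.05 there was 1 member, Xrcc3, where 9.54% of all genes were. None was called between dark and light (0.00613% of all genes), and none for a drift across the 48 h (0% of all genes). At an unadjusted p under 0.05, 21 of 37 had a positive slope on the mean of cell proliferation genes across the pools, against 9.74% of all genes, although no member and no other gene (0%) passed adjustment there.

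Each member varied within a narrow range. The highest pool stood 1.13 times over the lowest for Xrcc1 and 1.46 times for Rad51c. The median of this ratio was 1.24 over the 37 members, against 1.31 over all genes tested. Scatter around the fitted wave, as the median residual SD, was 0.0885 log2 for members and 0.106 log2 for all genes. Mean probe intensities ran from 259 for Mgmt to 1725 for Apex1, with a median of 613 against 795 over all genes. Intensities of different probes are not a scale for comparing transcripts.

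**Figure D1:**
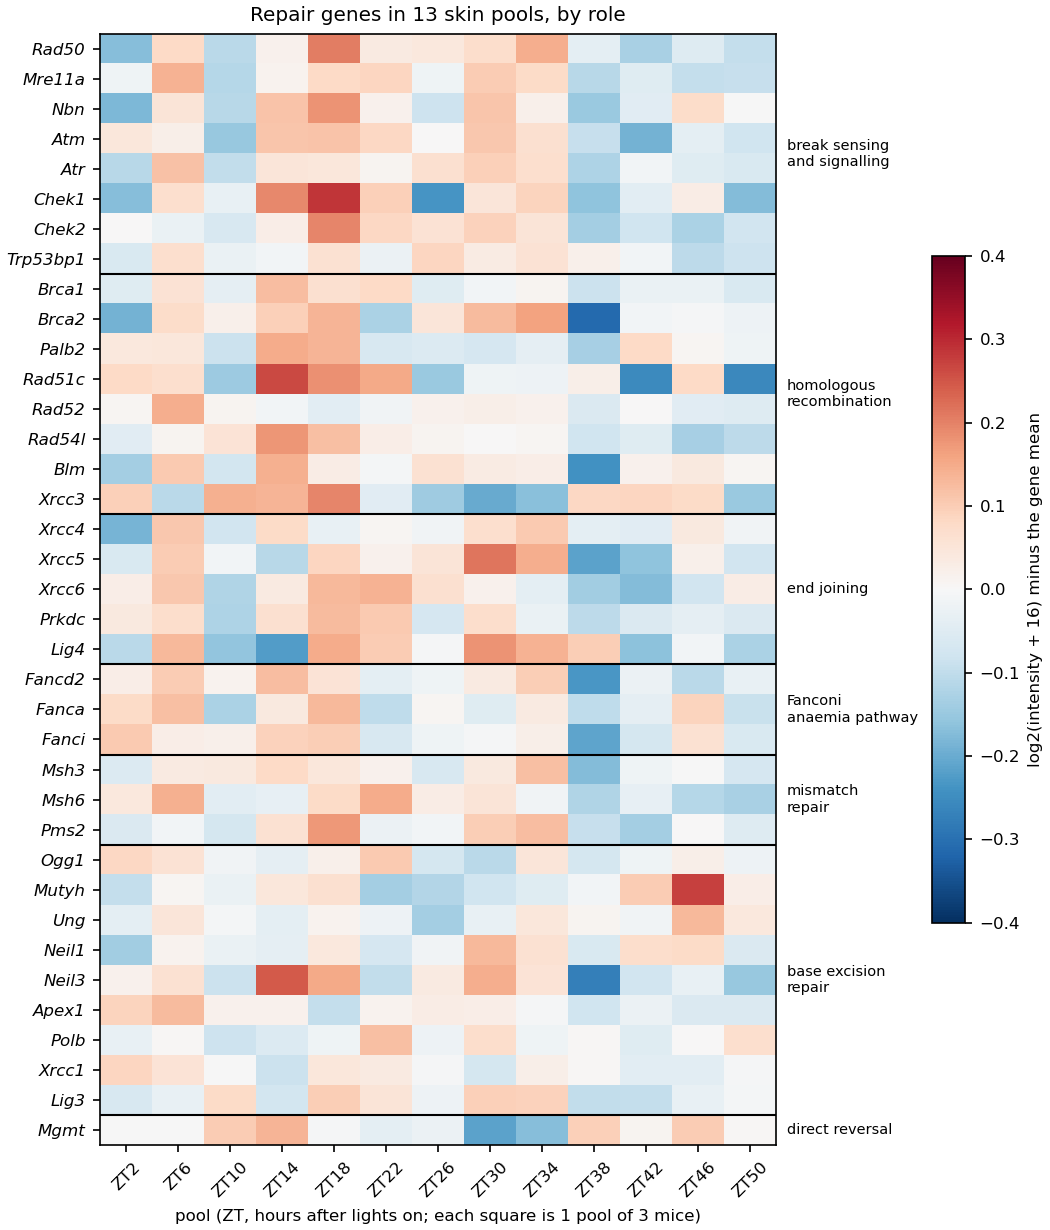
Log2(intensity + 16) minus the mean of each gene, for 37 repair genes (rows, by role) in 13 pools (columns, ZT in hours). Many rows of break sensing, recombination and Fanconi genes are red at ZT18 and blue at ZT38. Xrcc3 was above its mean at both (0.20 and 0.08 log2). Mgmt was near its mean at ZT18 (-0.0038) and above it at ZT38 (0.09). Rad51c, Trp53bp1 and Lig4 were among other genes above their means at ZT38.

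Among the break sensors, Rad50, Mre11a and Nbn form the complex that binds broken ends. Rad50 had 803 at its lowest (ZT2), a median of 917 and 1045 at its highest (ZT18). Mre11a ran from 672 at ZT10 to 804 at ZT6, and Nbn from 677 at ZT2 to 872 at ZT18. Nbn had a second, dimmer probe with a mean of 420.3, and the 2 probes did not move together (r = -0.07 over 13 pools), so its values depend on the probe. The kinase Atm, activated by double-strand breaks, lay between 564 at ZT42 and 699 at ZT18. The kinase Atr, activated by single-stranded DNA at stalled forks, lay between 507 at ZT38 and 602 at ZT6. Trp53bp1, which steers breaks towards end joining, varied least of these genes, between 741 and 847.

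Chek1 and Chek2 are kinases that carry the signal onward. Chek1 had 389.6, 463, 432, 506, 542, 472, 372, 457, 470.1, 393, 428, 450.3 and 389 from ZT2 to ZT50. It was highest in the first night, while no pool of the second night stood above ZT30 or ZT34. The fitted wave had an amplitude of 0.11 ± 0.05 log2 (SE) with a peak at 15.9 h, a fold of 1.16 from peak to trough (adjusted p = 0.624, limma). Chek2 lay between 405 at ZT38 and 514 at ZT18. All 8 measured sensing genes had a positive slope on proliferation genes, 7 of them at an unadjusted p under 0.05. The exception was Trp53bp1, with a slope of 0.23.

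In homologous recombination, Xrcc3 and Rad51c are partners in 1 complex. Xrcc3 had 934, 809.8, 966, 963, 1004, 847, 789.7, 757, 777, 927, 928, 922 and 787 from ZT2 to ZT50. The second night stood above the light pools on either side of it, while 2 light pools of the first day, ZT2 and ZT10, lay within the range of the first night. Its fitted wave had an amplitude of 0.16 ± 0.04 log2 (SE), a fold of 1.24 and a peak at 17.4 ± 0.9 h, in the middle of the dark. The p was 0.00301 before and 0.350 after adjustment over all genes (limma), so it was not called. Xrcc3 overlaps Klc1 in RefSeq, and whether the probe reads both was not tested.

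Rad51c had 355, 352, 302, 406, 383, 375, 301, 332, 330.5, 341, 278, 355 and 278 from ZT2 to ZT50. The first night was above all light pools, and the second was not. Rad51c had a drift of -0.15 ± 0.06 log2 per 24 h, which was -0.076 with muscle and adipocyte markers as covariates. The slope of Rad51c on proliferation genes was 1.37 ± 0.49 (SE), against 0.03 ± 0.52 for Xrcc3. Their 95% intervals overlapped (0.33 to 2.42 and -1.08 to 1.15), and the difference was not tested.

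**Figure D2:**
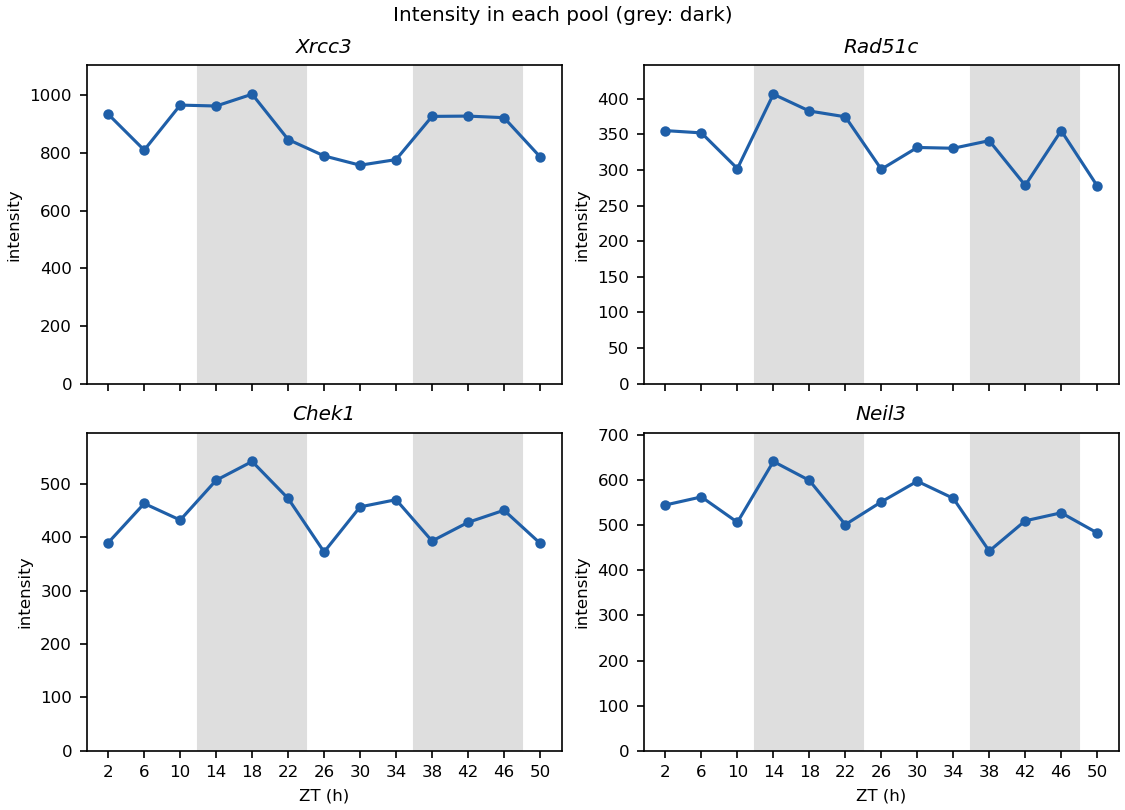
Intensity of Xrcc3, Rad51c, Chek1 and Neil3 in each of 13 pools (points, 3 mice each) against ZT in hours, with dark hours in grey. Xrcc3 reached 1004 at ZT18, and each of these genes, Xrcc3 included, was lower at ZT38 than at ZT14.

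Brca1 promotes the trimming of broken ends, and Palb2 links it to Brca2. Brca2 had 371, 448, 432, 455, 469, 388, 440.1, 465, 477, 339.9, 421, 424 and 419 from ZT2 to ZT50. Its lowest pool was ZT38, as it was for Brca1 (364, with a highest of 424 at ZT14) and Palb2 (318, with a highest of 390.3 at ZT14). Blm, a helicase that resolves joined molecules, also ranged from 581 at ZT38 to 763 at ZT14. Rad54l, a motor that aids strand invasion, ran from 353 at ZT46 to 442 at ZT14. Rad52, which anneals single strands, lay between 1095 and 1264. ZT14 and ZT38 are the same hour of the night, 1 day apart, so the ends of the ranges of Brca1, Palb2 and Blm were pools of 1 time of day.

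In end joining, Xrcc5 and Xrcc6 are the Ku subunits that cap broken ends. Xrcc5 had 782, 877, 809, 755, 867, 825, 846, 949, 905, 701, 729, 828 and 774 from ZT2 to ZT50. Its fitted wave had an amplitude of 0.09 ± 0.05 log2, a peak at 5.4 h and a fold of 1.13 (adjusted p = 0.658, limma). The amplitude was 0.14 without ZT18 (adjusted p = 0.492, limma) and 0.057 without ZT30. Xrcc6 had a fitted amplitude of 0.07 ± 0.04 log2 with a peak at 0.2 h, and ranged from 426 at ZT42 to 534 at ZT22, with a median of 492. Prkdc, the kinase that Ku recruits, lay between 609 and 728. Xrcc4 and Lig4, which seal the ends, lay between 559 and 689 and between 612 and 815.

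The Fanconi anaemia proteins open crosslinked strands at replication forks. Fancd2 had 388, 409, 385, 416, 396, 370.2, 376, 390.3, 408, 321, 374, 352 and 373 from ZT2 to ZT50, again lowest at ZT38. Fanci, its partner in the clamp, ranged from 349.7 at ZT38 to 439 at ZT2, and Fanca, of the core complex, from 602 at ZT10 to 724 at ZT18. All 3 had an unadjusted p under 0.05 for the slope on proliferation genes, between 0.86 and 1.05.

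Of the mismatch repair genes, Msh6 and Msh3 recognise mispaired bases and Pms2 acts after them. Msh6 had 455, 489.7, 429, 431, 467, 491, 451, 458, 437, 405, 432, 407 and 403 from ZT2 to ZT50. The last 5 pools include its 3 lowest, and its drift was -0.10 ± 0.04 log2 per 24 h. Msh3 ran from 486 at ZT38 to 598 at ZT34, and Pms2 from 556 at ZT42 to 693 at ZT18. Amplitudes of the 24 h wave were at most 0.04 log2 in this group.

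Among the base excision repair genes, Neil3, a glycosylase for oxidised bases and crosslinks known for its expression in dividing cells, had 545, 563, 506, 641, 599, 501, 552, 597, 559.6, 443, 509.7, 527 and 483 from ZT2 to ZT50. It had the second smallest fitted wave of the 37 (0.0099 log2). ZT14 was its highest pool and ZT38, the same hour 1 day later, its lowest. Neil1, a glycosylase of the same family, lay between 465 and 563. The glycosylase Ogg1 removes oxidised guanine and lay between 489.7 and 569.8. Mutyh, which removes adenine paired with oxidised guanine, lay between 620.0 at ZT22 and 828 at ZT46. Ung, which removes uracil, lay between 372 at ZT26 and 450.2, again at ZT46. ZT46 is the pool with the highest sum of hepatocyte markers, and their part in these values was not tested.

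The genes of the later steps of base excision repair had narrow ranges. Apex1, which cuts the strand at the empty site, lay between 1610.4 and 1881, and Polb, which fills the gap, between 1481 and 1706. Xrcc1, the scaffold, lay between 938 and 1059, and its ligase Lig3 between 1337 and 1533. Mgmt, which takes alkyl groups off guanine and is the only direct reversal gene listed, had 258, 258, 279, 286, 258, 251, 254, 221, 228, 277, 261, 279 and 259 from ZT2 to ZT50. Its 2 lowest pools, ZT30 and ZT34, are light pools in which the mean of all members was above its average (0.03 and 0.04 log2).

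The fitted 24 h waves of the members were small. Amplitudes of the 37 members ran from 0.0089 log2 for Ung to 0.16 log2 for Xrcc3, with a median of 0.03, against 0.06 over all genes. The upper 95% bound of the fold from peak to trough lay between 1.11 for Ung and 1.40 for Xrcc3, with a median of 1.18. These bounds are approximate and concern a cosine of 24 h, not other daily shapes. Fitted peaks lay in the dark for 17 of 37 members, against 8848 of 16322 genes tested. The SE of the peak ran from 0.9 h for Xrcc3 to 20.8 h for Neil3, so many peaks have no firm position. Leaving out ZT18, ZT38 or ZT42 gave 2 members (5.41%) at an unadjusted p under 0.05 in place of 1. The shares of all genes were then 10%, 8.72% and 8.21%. No member was called when any single pool was left out.

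The windows of 250 bases before the start of transcription are printed for Xrcc3 and Chek1, the 2 members with the smallest p for the wave, to show which short motifs they hold. They come from RefSeq on GRCm38.p6, at chr12:111813880-111814129 (minus strand) and chr9:36726659-36726908 (minus strand), 5′ to 3′. Capitals mark matches on either strand to CACGTG (the E-box that clock proteins bind), CCAAT (the box that NF-Y binds), TTTGAA (a motif of mitotic genes), and TTTCGCGC, TTTGGCGC or TTTCCCGC (E2F-type).
Xrcc3: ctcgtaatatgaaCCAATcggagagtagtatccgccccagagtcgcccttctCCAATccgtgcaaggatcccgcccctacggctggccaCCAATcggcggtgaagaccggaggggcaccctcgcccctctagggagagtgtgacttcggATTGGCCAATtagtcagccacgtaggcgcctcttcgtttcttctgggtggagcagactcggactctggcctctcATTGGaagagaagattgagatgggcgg
Chek1: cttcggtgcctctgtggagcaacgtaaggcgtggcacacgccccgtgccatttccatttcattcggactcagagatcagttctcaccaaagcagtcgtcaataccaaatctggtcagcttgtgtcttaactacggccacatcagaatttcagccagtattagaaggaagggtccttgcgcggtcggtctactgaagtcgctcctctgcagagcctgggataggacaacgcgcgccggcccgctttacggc
Xrcc3 had 6 matches, all to CCAAT, with 2 of them abutting in opposite orientation, and Chek1 had none to any motif. CACGTG was in 3 of the 33 listed genes with a window in the table (Xrcc5, Apex1 and Lig3), which is 9.09%, against 9.06% of 12847 tested genes with one. CCAAT was in 48.5% of these members, against 38.8%. A match is a description of letters, and absence of one says nothing about a factor.

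Dark pools differed little from light pools. The median difference over members, dark minus light with linear time as covariate, was 0.0017 log2, against 0.01 over all genes, and 19 of 37 were positive, against 55.6% of all genes. At an unadjusted p under 0.05 there were 2 members, both recombination genes, against 12.4% of all genes. None of the 37 had dark and light pools that did not overlap, against 0.276% of all genes.

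Xrcc3 had 847, 927 and 1004 as lowest, median and highest in the dark, against 757, 789.7 and 966 in the light. The difference was 0.20 ± 0.06 log2 (SE, 6 dark and 7 light pools, adjusted p = 0.343, limma). Rad51c had 278, 365 and 406 in the dark, against 278, 330.5 and 355 in the light, a difference of 0.19 ± 0.06 (adjusted p = 0.357, limma). Both sets of pools overlapped. Chek1 had 393, 461 and 542 in the dark, against 372, 432 and 470.1 in the light, a difference of 0.15 ± 0.07. In the other direction, Xrcc5 had 701, 790.0 and 867 in the dark, against 774, 846 and 949 in the light, a difference of -0.11 ± 0.06. Apex1 had 1610.4, 1675 and 1745 in the dark, against 1656, 1754 and 1881 in the light, a difference of -0.05 ± 0.04. Rad52 had 1095, 1119 and 1143 in the dark, against 1100.1, 1155 and 1264 in the light, a difference of -0.04 ± 0.04. The dark and light pools of each of these genes overlapped. Without ZT22 the number of members at an unadjusted p under 0.05 was 4 (10.8%), a lower share than the 20% of all genes.

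**Figure D3:**
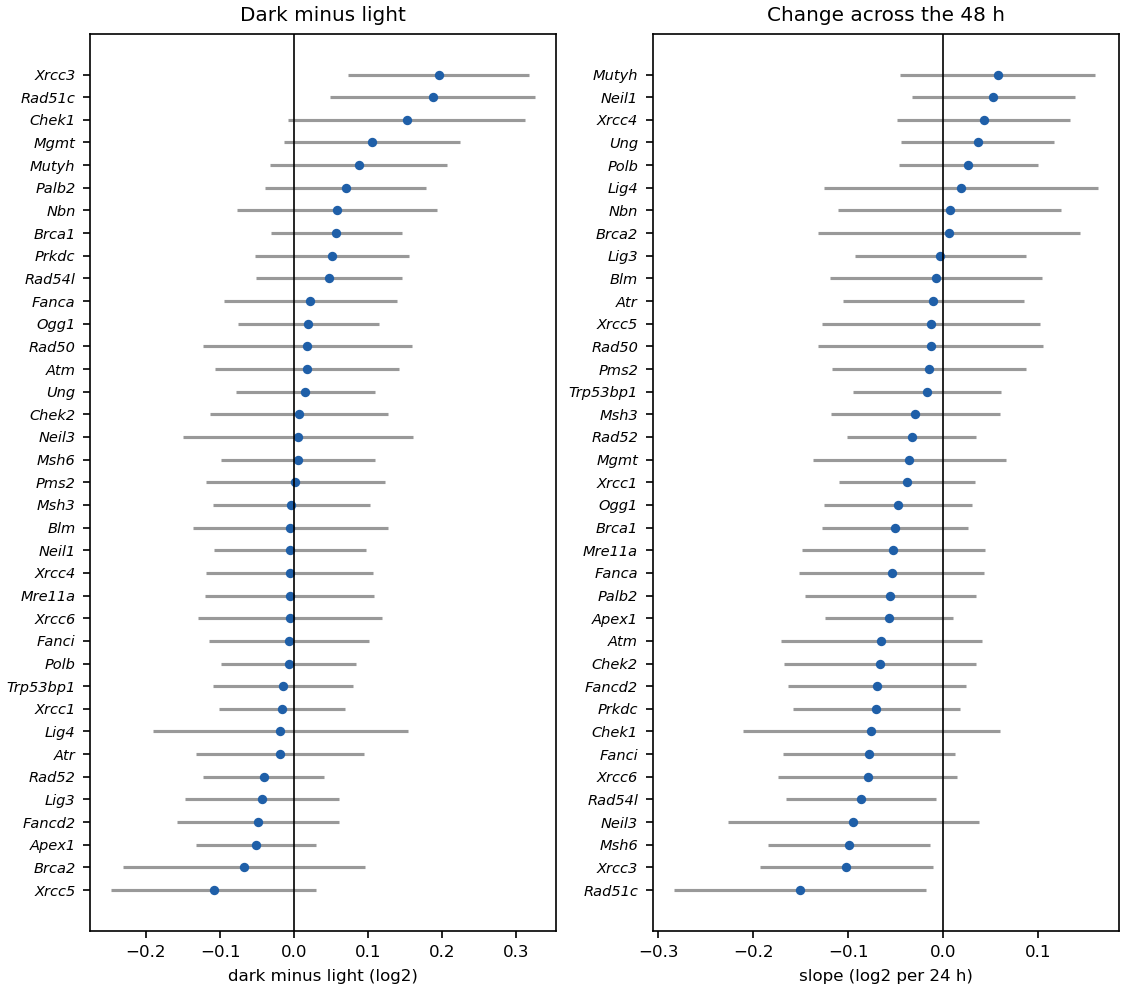
Fitted difference of dark minus light (left, log2) and slope across the 48 h (right, log2 per 24 h) for 37 repair genes, with points for estimates and lines for 95% intervals. Only the lines of Xrcc3 and Rad51c on the left, and of 4 genes on the right, do not reach 0, before any adjustment.

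Across the 48 h more members had a negative slope than a positive one. It was negative in 29 of 37 members, with a median of -0.04 log2 per 24 h, while over all genes the median was -0.01 and 43.5% of slopes were positive. At an unadjusted p under 0.05 there were 4 members, all negative, against 5.59% of all genes in that direction and 8.8% in either. They were Msh6, Rad51c, Xrcc3 (-0.10 ± 0.04) and Rad54l (-0.09 ± 0.04), with adjusted p from 0.504 to 0.532 (limma). Positive slopes included those of Neil1 (0.05 ± 0.04), Mutyh (0.06 ± 0.05) and Xrcc4 (0.04 ± 0.04). That of Neil1 was 0.026 without ZT2 and 0.089 without ZT50, and that of Mutyh was 0.038 without ZT22 and 0.021 without ZT46. The 4 became 2 without ZT6 or without ZT14, and 1 without ZT50, the last pool. The shares of all genes, in either direction, were then 7.28%, 8.61% and 6.98%. The 48 proliferation genes also had a negative median drift, of -0.06 log2 per 24 h.

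The slope on proliferation genes is the change of a gene, in log2, for each log2 unit of their mean. That mean took 48 of 50 listed genes of replication and mitosis, none of them a member, and was highest at ZT14 (0.12) and lowest at ZT38 (-0.16). The members had a median slope of 0.78, against 0.14 over all genes, and 33 of 37 slopes were positive, against 58.6% of all genes. By role, an unadjusted p under 0.05 was reached by 7 of 8 sensing genes, 6 of 8 recombination genes, 2 of 5 end joining genes, 3 of 3 Fanconi genes, 2 of 3 mismatch genes and 1 of 9 base excision genes. The difference between roles was not tested. Marker lists of some skin cells had similar medians: 0.82 for 6 differentiated epidermis and 0.78 for 6 fibroblast markers. In each of these lists, 3 of 6 markers had a positive slope at an unadjusted p under 0.05. Medians were 0.51 for basal epidermis, 0.42 for adipocyte and 0.10 for lymphocyte markers. They were negative for hair (-0.23), hepatocyte (-0.30) and muscle (-1.39) markers.

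Neil3 had a slope of 1.71 ± 0.29 (SE, 13 pools), between 1.62 and 1.79 when any 1 pool was left out, with an unadjusted p of 3.01e-05 and an adjusted p of 0.137 (limma). Pearson's r of Neil3 with the proliferation mean was 0.907 and Spearman's rho 0.846 (two-sided permutation p of 7.0e-05 and 0.00053, adjusted over 16322 genes 0.0672 and 0.305). Without ZT38 and ZT14, the 2 pools farthest from the median of the mean, r was 0.773. Other high slopes were those of Chek1 (1.42 ± 0.45), Rad51c (1.37 ± 0.49), Brca2 (1.27 ± 0.40), Blm (1.05 ± 0.31) and Fancd2 (1.05 ± 0.28). Their order was not stable: without ZT38 the slope of Rad51c was 2.44, above that of Neil3, and that of Brca2 was 0.79. Without ZT38 and ZT14 the slope of Blm was 0.51 and that of Fancd2 0.65, and with mitotic genes only that of Rad51c was 0.89. The lowest slopes were those of Mgmt (-0.15 ± 0.41), Polb (-0.10 ± 0.28) and Ung (-0.05 ± 0.30), whose signs turned under other scalings of the arrays: Mgmt to 0.22 and Ung to 0.04 after quantile normalization, Polb to 0.27 after centring on array medians.

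The count depended on 1 pool. Without ZT38, 10 of 37 members had a positive slope at an unadjusted p under 0.05, against 7.85% of all genes. Without both ZT38 and ZT14 there were 13, against 11.3% of all genes. The scale of the arrays also bore on the calls. When each array was centred on its median, Neil3 (adjusted p = 0.0388), Fancd2 (0.0439), Atm (0.0443) and Fanci (0.0472) passed, as did 2.78% of all genes (limma).

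Other quantities moved with the same pools. The mean of the members was 0.09 log2 above its average at ZT18 and 0.05 at ZT14, and stood at -0.09 at ZT38. With all tested genes split into 4 equal bins of intensity, the mean of the second lowest bin, which held 22 of the 37 members, was 0.02 at ZT18, 0.03 at ZT14 and 0.00072 at ZT38. That of the next brighter bin, with 8 members, was 0.03 at ZT18 and -0.04 at ZT38. The sum of 6 differentiated epidermis markers was highest at ZT14 (45277) and lowest at ZT38 (36991), and that of 7 basal epidermis markers was highest at ZT14 (46863). The sum of 10 hair markers was lowest at ZT14 (96564). Their part in the members' values was not tested.

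**Figure D4:**
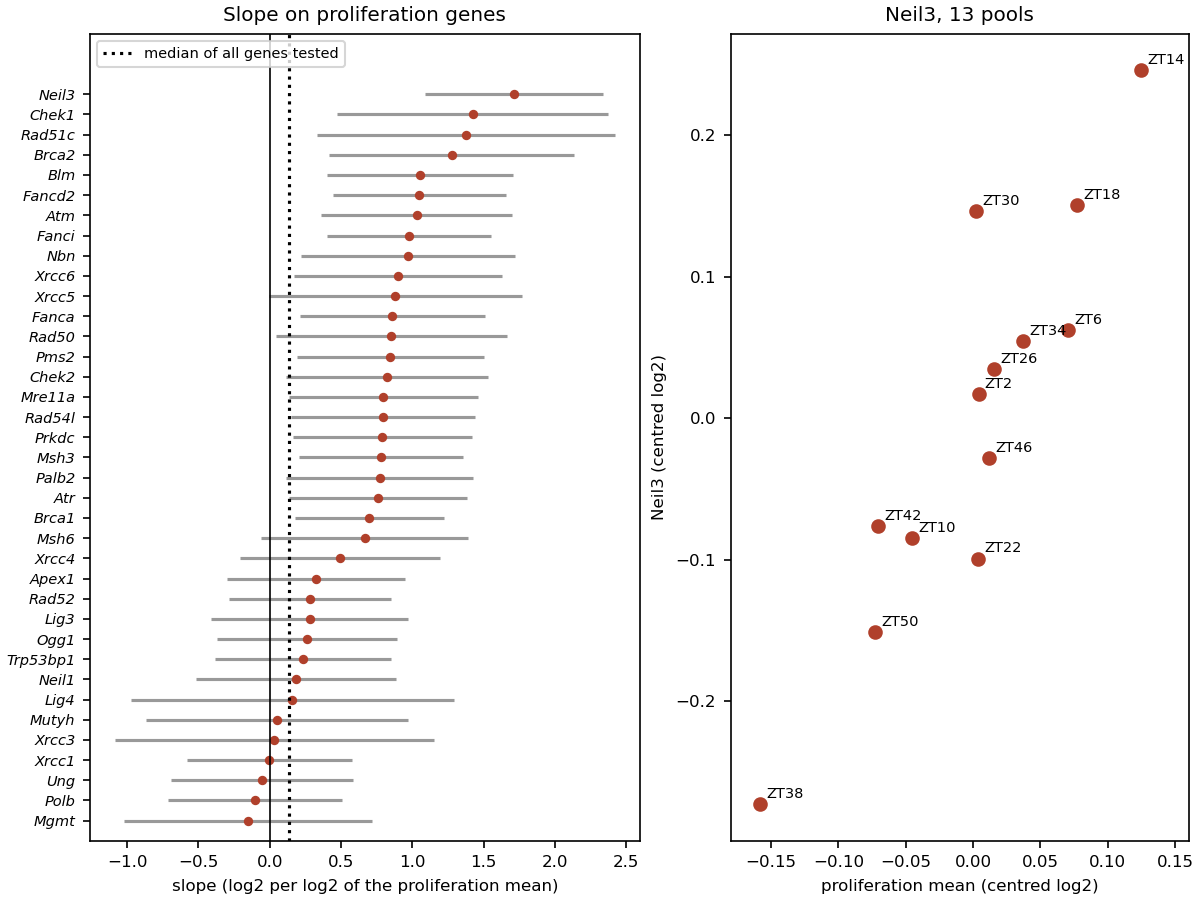
Left, slope of 37 repair genes on the mean of 48 proliferation genes (points, with 95% intervals as lines), with the median of all genes tested (0.14) dotted. Right, Neil3 against that mean in 13 pools, both as log2 minus their own averages, where ZT38 and ZT14 are the ends of the range.

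E2F factors drive many genes at the start of replication. An E2F-type match lay before 4 of the 33 listed genes with a window (Chek2, Brca2, Xrcc6 and Msh3), which is 12.1%, against 2.88% of tested genes with one, and TTTGAA before none, against 13.7%. The windows of Chek2, Brca2 and Xrcc6 are printed because they hold such a match, and they were chosen after motifs and values had been seen. They were among the 21 with a positive slope at an unadjusted p under 0.05, as was Msh3. Of the 6 members with the largest slope, 5 had a window, and 1 of these (Brca2) held an E2F-type match. They lie at chr5:110839733-110839982 (plus strand), chr5:150522371-150522620 (plus) and chr15:82016119-82016368 (plus), with the same build, source and capitals as above.
Chek2: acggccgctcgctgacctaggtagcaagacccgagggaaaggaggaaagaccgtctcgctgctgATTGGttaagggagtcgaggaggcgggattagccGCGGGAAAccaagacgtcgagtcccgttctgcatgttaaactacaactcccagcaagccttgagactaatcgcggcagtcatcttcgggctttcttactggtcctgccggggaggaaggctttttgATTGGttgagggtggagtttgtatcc
Brca2: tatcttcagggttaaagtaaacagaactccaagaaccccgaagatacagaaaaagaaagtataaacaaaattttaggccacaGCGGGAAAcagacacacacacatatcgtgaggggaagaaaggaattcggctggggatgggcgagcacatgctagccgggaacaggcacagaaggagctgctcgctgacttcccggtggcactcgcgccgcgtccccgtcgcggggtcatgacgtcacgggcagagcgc
Xrcc6: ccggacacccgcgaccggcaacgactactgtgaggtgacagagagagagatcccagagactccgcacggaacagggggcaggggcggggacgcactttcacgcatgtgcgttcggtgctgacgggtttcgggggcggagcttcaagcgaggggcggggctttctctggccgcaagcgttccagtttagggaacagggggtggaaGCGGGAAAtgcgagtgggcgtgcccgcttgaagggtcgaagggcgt
In each of these windows the E2F-type match is GCGGGAAA, the TTTCCCGC motif read on the other strand. The slopes on proliferation genes were 0.82 for Chek2, 1.27 for Brca2, 0.90 for Xrcc6 and 0.78 for Msh3. Whether a match goes with the slope was not tested.

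Members also followed each other. Over 666 pairs the median r across the 13 pools was 0.32, with 79.3% of pairs above 0. Over all gene pairs the median was 0.007, with 50.7% above 0. Over 1128 pairs of the proliferation genes it was higher than over members, at 0.43, with 92.6% above 0. Pairs share pools and array scale, and with array medians set equal the median was 0.50 over member pairs and 0.092 over all gene pairs. The shares above 0 were then 85.6% and 56.6%. Sensing genes had a median of 0.64 with all 28 pairs above 0, the 3 Fanconi pairs 0.71, end joining genes 0.43, mismatch genes 0.40 and recombination genes 0.38. Base excision genes had 0.05, with 21 of 36 pairs above 0 (58.3%, against 50.7% of all gene pairs). With array medians set equal they had 0.33 and 27 of 36 (75%, against 56.6%). After quantile normalization the median of recombination genes was 0.20. The closest pairs were Rad50 with Pms2 (0.855) and Chek1 with Brca1 (0.852), and the most opposed was Xrcc5 with Mgmt (-0.73). Atr had the highest median r with other members (0.57), and Mgmt (-0.29), Xrcc3 (-0.14) and Mutyh (-0.08) had negative ones.

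Muscle markers differed widely between the pools. No member was called for a slope on the mean of the muscle markers, against 1.22% of all genes, and 1 had an unadjusted p under 0.05, against 6.84%. That was Rad51c, with -0.29 ± 0.10 (adjusted p = 0.369, limma), followed by Ogg1 with -0.11 ± 0.06.

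A wider list of 80 genes of the same pathways gave 66 measured, none a member, and none was called in any of the 5 tests. At an unadjusted p under 0.05, 21 of 66 (31.8%) had a positive slope on proliferation genes, against 9.74% of all genes, with a median slope of 0.50 against 0.14. Among them were Fancb of the Fanconi core complex (1.73 ± 0.37), the nuclease Exo1 (1.21 ± 0.28), the strand break sensor Parp1 (1.15 ± 0.27) and the replicative ligase Lig1 (1.15 ± 0.29). For the wave there were 3 of 66 (4.55%) at an unadjusted p under 0.05, a lower share than the 9.54% of all genes. Among them were Rad18, which marks stalled forks (amplitude 0.13 ± 0.04 log2, peak at 16.2 h, between 1345 and 2042), and Alkbh3, which reverses alkylation (0.12 ± 0.04, peak at 7.1 h, adjusted p = 0.501, limma). Between dark and light 4 of 66 (6.06%) had such a p, against 12.4% of all genes. For drift there were 6 (9.09%), near the 8.8% of all genes, and Fancf was 1 of them (-0.14 ± 0.04 log2 per 24 h).

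Genes activated by p53, the factor that carries the damage signal to transcription, were read as 17 measured of 20 listed. None was called for the wave, drift, dark against light or proliferation. Sesn1 had a fitted peak at 7.3 h (0.09 ± 0.03 log2, adjusted p = 0.513, limma), and Btg2 a drift of 0.13 ± 0.03 log2 per 24 h (adjusted p = 0.326, limma). Ccng1, a cyclin that p53 induces, was the only target called in any test: it rose with muscle markers, by 0.45 ± 0.07 log2 per log2 unit (adjusted p = 0.00104, limma), and lay between 2998 and 4848.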

How the data were processed

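Per the labels, 13 RNA pools of whole back skin were hybridised to 1 whole-transcript array each. The submitters' processing notes list PLIER 2.0 and Affymetrix Expression Console 1.1.1 without saying what each did. From their range, the deposited values are intensity per probe, not logged; how the authors scaled arrays, and the genome build, are not given in the sources used here. The number of arrays limits the precision.

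Of 35557 probes, 21789 carried 1 gene symbol in the platform annotation, 1621 several and 12147 none. Deposited values were taken as log2(value + 16), so folds of dim genes come out too small. Probes with a mean under the 25th percentile (7.61 log2) were left out, and the highest-mean probe stood for each of 831 genes with several, which left 16322 genes. Tests ran in limma 3.58.1 (R 4.3.3) over all of these with Benjamini-Hochberg adjustment: cosine and sine terms of 24 h with linear time, the time term of that fit (drift), dark minus light with linear time, and slopes on the means of proliferation and muscle genes. Calls needed an adjusted p under 0.05. Bounds and intervals are at 95%. Correlations used 100000 permutations. The tests were checked on simulated data. Plots used matplotlib 3.10.9 (Python 3.11.15).

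Members and lists were chosen with earlier results of these data known. Members described in most detail were the 4 members with the smallest p for the wave, 3 per direction for drift and for dark against light, the 6 highest and 3 lowest proliferation slopes, the brightest and dimmest, with up to 4 genes per wider list and test. In RefSeq (GRCm38.p6, used for names, promoters and overlaps), 20 of the 37 members overlap another gene. Alternatives were other scalings, a filter at the 50th percentile or none, pseudocounts of 1 and 64, every probe, an intensity trend, other covariates, a factor for time of day, single proliferation lists, and leaving out each pool.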

Additional observations from a re-analysis of the deposited data

Results flagged for a closer look

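Each member was looked at in the dark pools and in the light pools for a pool far from the rest, measured as the gap to the nearest pool divided by the whole range. Of 74 such sets, 3 held one, and chance alone gives about 1 in 20. Ung was highest in the dark pool ZT46, at 450.2 with the next dark pool at 414, a gap of 0.702 of the range. Polb was highest in the dark pool ZT22, at 1706 with the next at 1573, a gap of 0.682. Rad52 was highest in the light pool ZT6, at 1264 with the next at 1159, a gap of 0.64.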

How the results depend on the processing

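The count of members called stayed at 0 for the wave, drift, dark against light and muscle under every alternative that was run, and for proliferation under every one except array medians set equal, which gave 4 members and 453 genes in all. With every probe kept, members were still counted by their highest-mean probe, so the dimmer probe of Nbn did not enter the count. No separate paired analysis was run. The fit with time of day as a factor, given here, sets pools of the same hour on different days against each other. Of all genes, 23 were called for the wave, against 15 with no filter, 8 with muscle and adipocyte covariates and 9 with time of day as a factor. For dark against light 1 gene was called, against 0 with quantile normalization, a pseudocount of 64, no filter or an intensity trend, and 2 with the 50th percentile filter, cell covariates or no linear time. For proliferation, 0 genes became 1 with cosine, sine and linear time as covariates and 5 with mitotic genes only.

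At an unadjusted p under 0.05, the 1 member for the wave became 0 with time of day as a factor. The 4 for drift became 1 with the 50th percentile filter, which left 25 members, and 2 with cell covariates or with time of day as a factor. The 2 for dark against light became 1 with quantile normalization, the 50th percentile filter, cell covariates or no linear time. The 21 for proliferation became 13 with the 50th percentile filter and 12 with replication genes only. They became 13 without ZT38 and ZT14 (11.3% of all genes), an alternative chosen after seeing the data. The 1 for muscle became 2 with equal medians or with the proliferation mean as covariate, and 0 with the 50th percentile filter. The fewer members tested account for part of the counts under that filter, and for the other settings the cause was not tested. At the main setting the shares of all genes were 9.54% for the wave, 8.8% for drift and 12.4% for dark against light. They were 9.74% for proliferation (positive slopes) and 6.84% for muscle. Shares of all genes under the remaining settings are not given here, so those counts cannot be set against them.

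Proliferation slopes that turned sign were those of Mgmt (0.22 with quantile normalization, 0.16 with replication genes only), Ung (0.037 with quantile normalization, 0.065 with equal medians, 0.15 with linear time, 0.16 with cosine, sine and linear time, 0.14 without ZT38 and ZT14) and Polb (0.27 with equal medians, 0.031 with linear time, 0.0066 with cosine, sine and linear time, 0.014 without ZT38 and ZT14).

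Leaving out each pool in turn gave 13 to 30 genes for the wave (13 without ZT18, 15 without ZT2 or ZT14), 0 to 4 for dark against light (4 without ZT38) and 163 to 201 for muscle, 0 for drift and 0 for proliferation, and 0 members called in each test. Members at an unadjusted p under 0.05 numbered 1 to 2 for the wave, 1 to 5 for drift, 2 to 4 for dark against light, 10 to 22 for proliferation and 1 to 2 for muscle. Over all genes the share at such a p ran from 7.21% to 12.6% for the wave and from 5.09% to 12% for drift. It ran from 8.9% to 20% for dark against light, 7.24% to 12% for proliferation (positive slopes) and 5.27% to 9.15% for muscle. Slopes on proliferation ran from -0.58 to 0.16 for Mgmt, -0.17 to 0.011 for Polb and -0.12 to 0.041 for Ung, and the drift of Xrcc4 from -0.0058 to 0.063.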
